A study of Mus musculus with 231 samples.

Results

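The blood microRNA (miRNA) profile of mice carrying the Cbfb-MYH11 (CM) leukemia fusion gene was compared with that of littermate controls (Ctrl) 1 month after the fusion was switched on. The comparison comprised the 14 small RNA libraries that the labels place at month 1 of the training cohort, 7 from CM mice and 7 from Ctrl mice, out of 231 in the whole series. All mature miRNAs that passed a filter on low counts were tested, 472 of the 1863 listed. CM mice were C57BL/6 animals with the knock-in allele and the Mx1-Cre transgene (Cbfb56M/+/Mx1-Cre), with the genotype label CHW. They were given 7 doses of poly(I:C) at 14 mg/kg from 6 to 8 weeks of age. Ctrl mice were littermates of the same strain and age that received the same injections, with the genotype labels HW, CW or WT. What these codes stand for is not stated. By the labels Ctrl mice lacked the transgene, by the methods they carried the knock-in allele without Cre, and which holds for each mouse was not tested. Cre is driven by the interferon-responsive Mx1 promoter, which is not limited to blood cells, and poly(I:C), an interferon inducer, was given to both arms. The CM arm had 4 female and 3 male mice and the Ctrl arm 2 female and 5 male mice.

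The CM fusion models a human acute myeloid leukemia in which an inverted chromosome creates the same fusion. It joins core binding factor beta, the partner of the RUNX proteins, to a smooth muscle myosin heavy chain and blocks the maturation of blood progenitors before leukemia appears. A miRNA is cut from a hairpin whose 5′ and 3′ arms can each give a mature strand (5p and 3p), and often one strand is kept in Argonaute while the other is degraded. Bases 2 to 8, the seed, choose the messenger RNAs it represses, so that miRNAs with the same seed form a family, and hairpins that lie close together in the genome are often cut from the same primary transcript.

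Total counts lay between 3304813 and 6334849 per library and gave a log2 difference of -0.09 between the arms (2-sided exact permutation test, p = 0.530). By the labels the cells were PBMC (peripheral blood mononuclear cells). The arms of miR-142a summed to 40370 to 107700 CPM (counts per 1000000 counts) in CM and 76290 to 104300 in Ctrl libraries. Since miR-142a is made throughout the blood lineage, it cannot tell mononuclear cells from other blood cells. Libraries of CM mice 3336 and 3368 stood apart. The red cell miRNAs miR-144, miR-451a and miR-486a/b took 39.1% and 34.1% of their counts, compared with 5.59% to 9.11% in the other 5 CM libraries and 3.19% to 7.26% in Ctrl libraries. In RNA from mixed cells, fewer cells of a type and less RNA per cell cannot be told apart. The arms were unevenly spread over the number that follows the letter G in the sample titles, which is not explained. G 3 held 1 CM and 1 Ctrl library, G 5 held 2 and 3, G 6 held 1 and 2, and the other 4 libraries lay in G numbers with a single arm. The number in the titles that counts the libraries of a mouse crosses over between mouse 3334 (CM) and mouse 3335 (Ctrl) from month 6 on, and results were repeated without both. Values without the libraries of mice 3336 and 3368 are given beside the results whose call depended on them.

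The mature sequences of the miRNAs on which the results turn are shown first, 5′ to 3′, from RefSeq (GRCm38.p6), with the seed in capitals. RefSeq sequences were matched for 384 of the 472 miRNAs tested and for 99 of the 130 called. The first set holds some of the miRNAs whose levels did not overlap between the arms.
miR-126a-3p: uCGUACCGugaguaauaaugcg
miR-31-5p: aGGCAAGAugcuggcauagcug
miR-34a-5p: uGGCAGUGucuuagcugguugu
miR-139-5p: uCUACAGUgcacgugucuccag
The second set holds pairs that share a seed. Both let-7 members and both miR-181 members were called in opposite directions, and miR-99a-5p and miR-100-5p, which differ at 1 of 22 bases, in the same direction.
let-7g-5p: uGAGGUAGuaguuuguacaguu
let-7e-5p: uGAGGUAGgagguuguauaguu
miR-181d-5p: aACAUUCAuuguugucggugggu
miR-181c-5p: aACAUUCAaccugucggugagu
miR-99a-5p: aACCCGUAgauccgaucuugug
miR-100-5p: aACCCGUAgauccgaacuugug
The third set holds red cell miRNAs and miR-30a, whose levels were highest in the libraries of mice 3336 and 3368.
miR-144-5p: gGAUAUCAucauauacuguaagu
miR-144-3p: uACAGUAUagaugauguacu
miR-451a: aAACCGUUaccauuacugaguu
miR-30a-5p: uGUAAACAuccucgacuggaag
The last set gives both strands of hairpins whose arms moved apart.
miR-106b-5p: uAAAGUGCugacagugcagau
miR-106b-3p: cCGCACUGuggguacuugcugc
miR-340-5p: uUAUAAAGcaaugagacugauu
miR-340-3p: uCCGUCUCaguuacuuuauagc
miR-22-5p: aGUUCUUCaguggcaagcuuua
miR-22-3p: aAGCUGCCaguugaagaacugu
The sequences of miR-126a-5p, miR-486a, miR-486b, miR-30b-5p, miR-151-5p and miR-151-3p are not shown.

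Over all 14 libraries, 130 of 472 miRNAs passed the threshold (27.5%). Of the 472, 69 were higher in CM mice (14.6%) and 61 lower (12.9%). The test was edgeR's quasi-likelihood test with a Benjamini-Hochberg (BH) adjusted p under 0.05. The median log2 fold change was 1.12 among those called higher, -0.99 among those called lower and -0.10 over all tested. Of the called miRNAs, 20 had a mean of 1000 CPM or more, 14 of them higher and 6 lower, and 32 stayed under a mean of 10 CPM in both arms. The levels of the arms did not overlap for 23 of the 472 (4.87%), 14 higher and 9 lower.

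**Figure D1:**
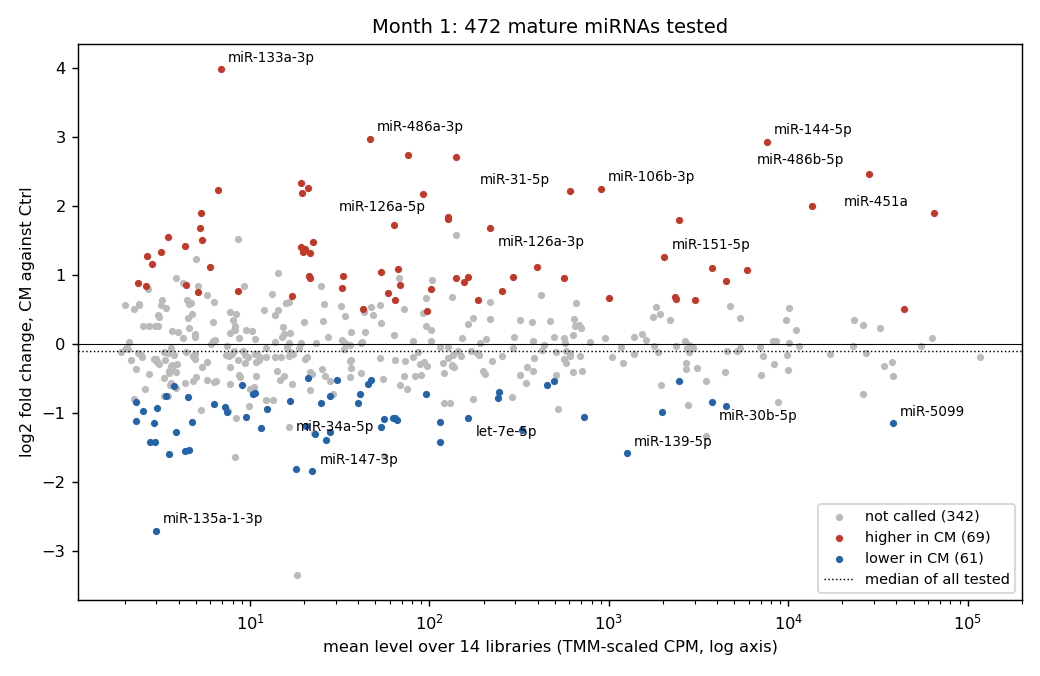
Log2 fold change at month 1 (CM against Ctrl, vertical axis) against the mean level over the 14 libraries (TMM-scaled CPM, horizontal log axis), 1 point per miRNA tested. The 69 called higher are red, the 61 called lower blue and the others grey, and the dotted line marks the median of -0.10. The called miRNAs range from means of a few CPM to 64910 CPM (miR-451a), and the most abundant miRNA tested was not called.

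The size of this set depended on the libraries. Without CM mice 3336 and 3368 there were 86 calls (56 higher and 30 lower), of which 70 had the same call as before. Adding the G number to the model left 10 calls, 5 higher and 5 lower, all in the same direction as before, and 99 miRNAs had an unadjusted p under 0.05. Within G 3 all but 1 of the 130 called miRNAs, within G 5 all 130 and within G 6 90 had a difference of the same sign as over all libraries, of which these libraries are a part. Over all 472 tested the shares were 80.7%, 79.2% and 58.5%. The single CM library in G 6 was that of mouse 3334. In G 3 the single CM library was that of mouse 3368, whose high share of red cell miRNAs is given above. Differences within G 3 here and below are therefore not independent of that library. All 130 kept their sign both without mice 3336 and 3368 and with the G number. Both fits reuse libraries by which the 130 were chosen, so that a kept sign is no independent support.

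The 10 miRNAs still called with the G number were miR-126a-3p, miR-126a-5p, miR-31-5p, miR-151-5p and miR-133a-3p among those higher, and miR-34a-5p, miR-139-5p, let-7e-5p, miR-340-5p and miR-19b-1-5p among those lower. They are a subset read from the results. The miR-126a hairpin lies in the gene Egfl7 (mm9 chr2:26446877-26446949, plus strand, in an exon of at least 1 transcript), and miR-126 is known from endothelial cells and from hematopoietic stem cells. miR-126a-3p ranged from 213 to 423 CPM in CM libraries (median 357) and from 81.4 to 130.7 CPM in Ctrl libraries. Within G 3, G 5 and G 6 its CM libraries were higher by 1.62, 1.41 and 1.05 log2 units, and those of the 5p arm by 2.06, 1.62 and 1.00.

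miR-31-5p, studied in epithelial cancers and T cells, comes from an intergenic hairpin (mm9 chr4:88556461-88556566, minus strand). It ranged from 387 to 1606 CPM in CM libraries (median 913) and from 154.7 to 245 CPM in Ctrl libraries (median 229). Every CM library was above every Ctrl library, and the lowest CM value was that of mouse 3334. The log2 fold change was 2.21 ± 0.25 (SE; edgeR adjusted p = 2.67e-05), 2.25 without mice 3336 and 3368 and 1.66 with the G number. It was 0.67 in G 6, compared with 1.91 in G 3 and 2.03 in G 5.

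The arms were also fully apart for miR-34a-5p, a transcriptional target of p53 (mm9 chr4:149442563-149442664, plus strand, with no host gene on its strand). Its levels were 39.5 to 47.8 CPM in CM libraries (median 41.8) and 80.5 to 105.8 CPM in Ctrl libraries (median 90.7). The spread within the CM arm was small (42.02 ± 2.73 CPM, SD, n = 7), and the libraries of mice 3336 and 3368 lay inside it at 39.5 and 40.1 CPM. The log2 fold change was -1.10 ± 0.11 (edgeR adjusted p = 1.05e-05). It stayed between -0.96 and -1.17 within G 3, G 5 and G 6.

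miR-139-5p, reported to restrain the growth of leukemia cells, comes from an intron of Pde2a (mm9 chr7:108623890-108623957, plus strand). It ranged from 319 to 1057 CPM in CM libraries (median 576) and from 1359 to 2851 CPM in Ctrl libraries (median 1623), with no overlap. The 2 highest Ctrl values were those of mice 3342 and 3346. The log2 fold change was -1.58 ± 0.27 (edgeR adjusted p = 0.00173) and -1.23 without these 2 Ctrl mice (adjusted p = 0.00754). The 3p arm fell with it (-1.27 ± 0.27, edgeR adjusted p = 0.00531), from a median of 36.2 CPM in Ctrl to 16.9 CPM in CM libraries.

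miR-151 comes from an intron of Ptk2, the focal adhesion kinase gene (mm9 chr15:73085245-73085312, minus strand). Its 5p arm ranged from 1919 to 4187 CPM in CM libraries and from 947 to 1475 CPM in Ctrl libraries, and its 3p arm from 1005 to 1516 CPM and from 616 to 945.6 CPM. Neither arm overlapped. The 5p arm rose by 1.27 ± 0.19 (edgeR adjusted p = 0.000645) and the 3p arm by 0.66 ± 0.15 (adjusted p = 0.00677) in log2 units. let-7e-5p ranged from 79.9 to 124.1 CPM in CM libraries and from 162 to 312 CPM in Ctrl libraries (median 206), again without overlap. Its log2 fold change was -1.07 ± 0.17 (edgeR adjusted p = 0.000903).

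miR-133a-3p, a low one, had the largest fold change of the called miRNAs. It was at 28.1 and 31.6 CPM in the libraries of mice 3336 and 3368, between 4.74 and 9.28 CPM in the other 5 CM libraries and at 1.73 CPM or less in Ctrl libraries, 2 of which held no count. The log2 fold change was 3.98 ± 0.69 (edgeR adjusted p = 0.00203) and 2.98 without both CM mice. miR-133a marks striated muscle. Of the 5 miRNAs on the muscle list 2 passed the filter, 1 was called, and no member fell. miR-1a-3p made up almost all of the list's level and was not called (28.8 to 430.2 CPM in CM and 8.92 to 132.3 CPM in Ctrl libraries, log2 fold change 1.58 ± 0.74, edgeR adjusted p = 0.131). It was lowest among CM libraries in mice 3357, 3336 and 3368, an order opposite to that of miR-133a-3p in the last 2. From the reads recovered from the deposited CPM it was called higher (1.75, edgeR adjusted p = 7.77e-05). Whether muscle RNA had a part in these values was not tested. miR-499-5p, from an intron of Myh7b, a muscle myosin gene, was also highest in mice 3336 and 3368, at 10.4 to 91.99 CPM in CM and 3.94 to 7.4 CPM in Ctrl libraries (log2 fold change 2.34 ± 0.45, edgeR adjusted p = 0.00523, and 1.41 without mice 3336 and 3368).

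**Figure D2:**
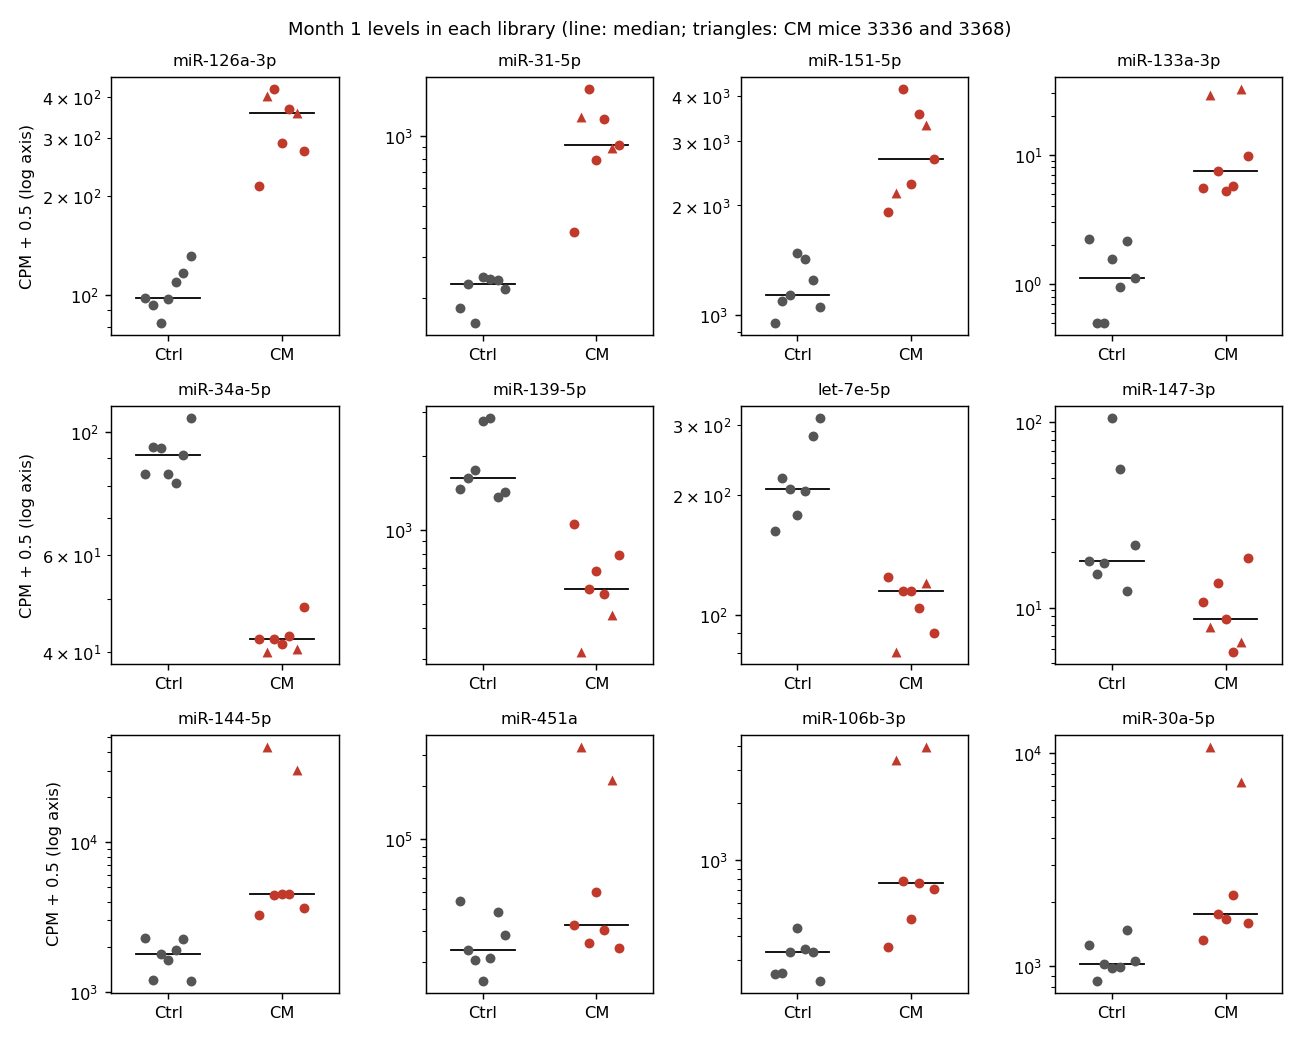
Levels of 12 miRNAs in each month 1 library (TMM-scaled CPM with 0.5 added, log axis), Ctrl in grey and CM in red, with a line at the median of each arm and triangles for CM mice 3336 and 3368. In miR-126a-3p, miR-31-5p, miR-151-5p, miR-34a-5p, miR-139-5p and let-7e-5p the arms are apart and the triangles lie among or near the other CM libraries, whereas in miR-144-5p, miR-451a, miR-106b-3p and miR-30a-5p they lie far above them.

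The red cell clusters had large and uneven differences. miR-144 and miR-451a are neighbours on chromosome 11 (mm9 chr11:77886507-77886743, plus strand) and are driven by GATA1 in erythroid cells, and miR-486 is abundant in red cells and muscle. All 7 mature miRNAs of these loci were called higher, beside 14.6% over all tested, with a median log2 fold change of 2.71 beside -0.10 over all tested. Of the 7, 4 are strands of miR-486a and miR-486b, whose counts cannot be told apart, so that the 7 are not separate members. The list was defined by the same red cell miRNAs whose share sets mice 3336 and 3368 apart. miR-144-5p was at 43320 and 30060 CPM in those libraries, between 3255 and 4478 CPM in the other 5 CM libraries and between 1176 and 2292 CPM in Ctrl libraries, so that all 7 CM libraries were above all Ctrl libraries. miR-451a was at 336000 and 217400 CPM in those libraries, and its 5 other CM libraries (24000 to 50120 CPM) overlapped the Ctrl libraries (15620 to 44630 CPM).

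Without mice 3336 and 3368, 6 of the 7 remained called, beside 56 of 491 called higher over all tested in that fit, and the median of the 7 was 1.16. miR-144-5p was then higher by 1.28 (edgeR adjusted p = 0.000971, against 2.94 ± 0.63 with all libraries) and miR-486b-5p by 0.89 (adjusted p = 0.0230, against 2.46 ± 0.61). miR-451a was no longer called (0.30, edgeR adjusted p = 0.495, against 1.90 ± 0.62 and 0.0343). miR-486a and miR-486b are cut from overlapping hairpins on opposite strands and share most of their sequence, so their counts cannot be told apart here. Other miRNAs also reached their highest levels in these 2 libraries. miR-30a-5p was at 10710 and 7290 CPM there, at 1334 to 2170 CPM in the other CM libraries and at 852 to 1479 CPM in Ctrl libraries. Its log2 fold change of 1.79 ± 0.46 became 0.71 without them (edgeR adjusted p = 0.0128 and 0.0147). Its 3p arm did not overlap between the arms of the study (47.04 to 388.5 CPM in CM and 20.2 to 46.5 CPM in Ctrl libraries, log2 fold change 2.18 ± 0.52, 0.91 without them).

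**Figure D3:**
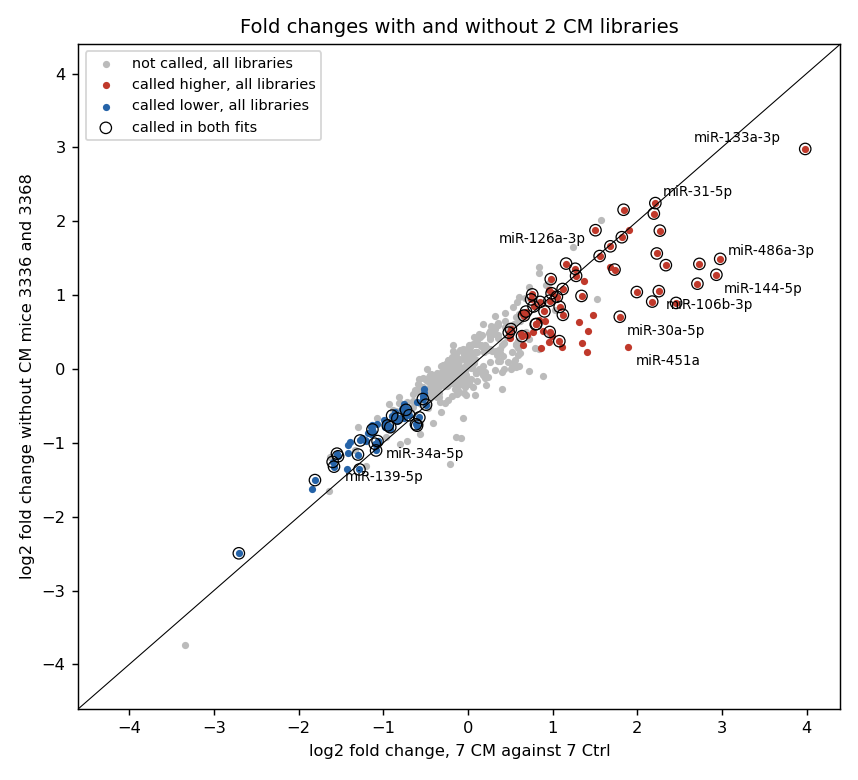
Log2 fold change at month 1 without CM mice 3336 and 3368 (vertical axis) against that with all 7 CM libraries (horizontal axis), 1 point per miRNA, red and blue where called higher or lower with all libraries, with a ring around the 70 called the same way in both. miR-31-5p, miR-126a-3p and miR-34a-5p lie close to the line of equal values, and miR-144-5p, miR-486a-3p, miR-106b-3p and miR-451a lie well below it.

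miR-106b, miR-93 and miR-25, paralogs of the miR-17-92 cluster in the gene Mcm7 (mm9 chr5:138606549-138607046, minus strand), had 4 of 6 mature strands called higher and none lower, beside 14.6% called higher over all tested, with a median of 0.93. The abundant strand miR-106b-5p was not among them (medians 1349 CPM in CM and 1407 CPM in Ctrl libraries, log2 fold change 0.06 ± 0.23). miR-106b-3p ranged from 351.1 to 3967 CPM in CM and from 231 to 440 CPM in Ctrl libraries (2.26 ± 0.52, edgeR adjusted p = 0.00832). miR-25-3p was higher by 1.11 ± 0.37 and miR-93-3p by 0.86 ± 0.30 (edgeR adjusted p = 0.0386 and 0.0467). The highest levels were again those of mice 3336 and 3368, and without them miR-106b-3p alone was called (1.05, edgeR adjusted p = 0.0109). In the miR-17-92 cluster 1 of 11 strands was called (27.5% over all tested), miR-19b-1-5p (lower, -1.28 ± 0.27, edgeR adjusted p = 0.00531, at most 7.75 CPM), and the median was -0.06. The abundant strand miR-19b-3p, which also has a copy on the X chromosome, varied widely in the raw counts (SD 2.02 in log2 CPM over Ctrl libraries). From the recovered reads it was called higher (0.73, edgeR adjusted p = 0.0114).

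The progenitor list holds 6 miRNAs. Of these, miR-99a-5p, miR-100-5p and miR-196b-5p were called higher and none lower, beside 14.6% called higher over all tested (median 0.69), and the same 3 were called without mice 3336 and 3368 (median 0.64). miR-99 and miR-100 are known from stem cells and repress mTOR, and miR-196b lies in the HOXA cluster. miR-100-5p ranged from 9.01 to 81.6 CPM in CM libraries (median 34.9) and from 3.74 to 12.2 CPM in Ctrl libraries, with the CM libraries of mice 3334 and 3370 inside the Ctrl range (log2 fold change 2.27 ± 0.46, edgeR adjusted p = 0.00523). In G 6 its difference was -0.01. miR-99a-5p ranged from 2287 to 4071 CPM and from 1406 to 2486 CPM (0.69 ± 0.16, edgeR adjusted p = 0.0105). miR-196b-5p ranged from 116.2 to 280 CPM and from 85.4 to 140.3 CPM (0.90 ± 0.20, edgeR adjusted p = 0.00583). Summed over the 6 members, however, the list was at 7812 to 13060 CPM in CM and 9128 to 13840 CPM in Ctrl libraries. Most of that sum was miR-10a-5p, which was not called (3968 to 8204 CPM in CM and 6861 to 10680 CPM in Ctrl libraries, -0.44 ± 0.17, edgeR adjusted p = 0.0662).

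Other clusters moved in part. miR-182-5p and miR-96-5p, known from sensory organs, were higher by 0.98 ± 0.30 and 0.75 ± 0.26 (edgeR adjusted p = 0.0274 and 0.0467), and their cluster partner miR-183-5p had 0.92 ± 0.34 (adjusted p = 0.0527). Without mice 3336 and 3368 the first 2 were 1.22 and 0.94. miR-215-5p, cut from a hairpin beside that of miR-194, ranged from 10.2 to 45.8 CPM in CM and from 3.32 to 19.4 CPM in Ctrl libraries (2.20 ± 0.43, edgeR adjusted p = 0.00523). Its highest Ctrl value was that of mouse 3342, and in G 6 the difference was -0.25. In the miR-99b/miR-125a cluster (mm9 chr17:17967152-17967851, plus strand), which is known to hold let-7e as well, the minor strands miR-99b-3p and miR-125a-3p were lower (-0.92 ± 0.22 and -0.75 ± 0.27, edgeR adjusted p = 0.0105 and 0.0499) at levels of at most 12.9 CPM. miR-99b-3p stayed called without mice 3336 and 3368 (-0.79, edgeR adjusted p = 0.0437) and miR-125a-3p did not (-0.66, adjusted p = 0.120). Their major strands had -0.17 ± 0.16 and -0.34 ± 0.21 and were not called.

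Among the miRNAs that were lower, several rested on a pair of Ctrl mice. miR-147-3p, which rises in macrophages after Toll-like receptor signals, was at 105.4 and 55.4 CPM in Ctrl mice 3342 and 3346, at 11.8 to 21.4 CPM in the other 5 Ctrl libraries and at 5.23 to 18.01 CPM in CM libraries. Its log2 fold change of -1.84 ± 0.50 (edgeR adjusted p = 0.0164) became -0.72 without these Ctrl mice (adjusted p = 0.0948). miR-149-5p, from an intron of Gpc1, was at 345.5 and 293 CPM in the same mice, at 81.1 to 117.3 CPM in the other Ctrl libraries and at 32.9 to 102.9 CPM in CM libraries (-1.42 ± 0.37, edgeR adjusted p = 0.0148). It was -0.72 without them (adjusted p = 0.0738). miR-574-3p went from -1.20 ± 0.33 to -0.66 (edgeR adjusted p = 0.0161 and 0.0763), whereas miR-338-3p stayed called (-1.30 ± 0.29 and -0.83, edgeR adjusted p = 0.00729 and 0.0238). Without CM mice 3336 and 3368 miR-147-3p, miR-149-5p and miR-574-3p were not called either (-1.62, -1.14 and -0.98, edgeR adjusted p = 0.0722, 0.0626 and 0.0632). Ctrl mice 3342 and 3346 have G number 6. Without these Ctrl mice 62 miRNAs were called higher and 41 lower, and 88 of all these had the same call as before.

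miR-3473b (-1.81 ± 0.44), miR-5121 (-1.39 ± 0.42), miR-500-3p (-1.25 ± 0.35), miR-709 (-1.22 ± 0.33) and miR-33-3p (-1.18 ± 0.40) were not highest in these mice, with edgeR adjusted p of 0.0105, 0.0256, 0.0190, 0.0159 and 0.0431. Without Ctrl mice 3342 and 3346 the first 3 were -1.98, -1.59 and -1.43. Without CM mice 3336 and 3368 miR-3473b stayed called (-1.50, edgeR adjusted p = 0.0444), and the other 4 did not, with values of -0.99, -0.93, -0.96 and -0.87 (adjusted p = 0.0737, 0.0679, 0.0550 and 0.135). miR-709 and miR-5121 were also not called from the recovered reads (-0.48 and -0.49). miR-345-5p, lower without overlap, did not depend on either pair of mice (18.4 to 55.6 CPM in CM and 56.3 to 93.8 CPM in Ctrl libraries, -1.08 ± 0.22, edgeR adjusted p = 0.00523, -1.10 and -1.17 without them). miR-500-3p lies in an intron of Clcn5 on the X chromosome, in a cluster of 5 hairpins of which 2 of 8 strands were called (27.5% over all tested), miR-500-3p and miR-532-3p, both lower (12.9% over all tested). It ranged from 83.8 to 375 CPM in CM and from 242 to 673 CPM in Ctrl libraries. miR-5099 was among the most abundant called miRNAs, at 8986 to 47380 CPM in CM and 27850 to 80720 CPM in Ctrl libraries (-1.14 ± 0.36, edgeR adjusted p = 0.0276). Its level differs greatly between the 2 deposited tables, so that its identity is uncertain, and its 2 lowest values were those of CM mice 3336 and 3368 (without them -0.78, edgeR adjusted p = 0.0728).

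The cluster of repeated hairpins in an intron of Sfmbt2 (mm9 chr2:10388571-10436598, plus strand, 33 annotated hairpins), which is expressed from the paternal allele in placenta, held many low strands. At this locus 10 of 34 mature strands tested were called lower (12.9% over all tested) and none higher. The list of its miRNAs goes by name and also holds strands not placed at the locus. Of the 36 strands tested on that list 11 were called lower and none higher. On the list 34 strands had a negative log2 fold change and the median was -0.53, beside -0.10 over all tested. Without mice 3336 and 3368, 2 strands of the list were called and its median was -0.34. The strands were rare. miR-467e-3p was at 0.826 to 4.06 CPM in CM and 5.17 to 8.80 CPM in Ctrl libraries (-1.53 ± 0.32, edgeR adjusted p = 0.00523), without overlap, and miR-669a-3-3p was at 0.46 to 5.21 and 4.74 to 8.25 CPM (-1.55 ± 0.39, edgeR adjusted p = 0.0120). Copies in this cluster are nearly identical, so that counts of single members are uncertain. miR-466p-5p, at most 3.64 CPM, was lower by the raw counts (-0.83 ± 0.25, and -0.70 with edgeR adjusted p = 0.0737 without mice 3336 and 3368) but at 0.09 in the deposited CPM.

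In some families members were called in opposite directions. Of the 10 strands tested of the let-7 5p list 1 was called higher and 1 lower, and of the 8 miR-181 strands also 1 and 1. These counts lay near the shares over all tested, 14.6% higher and 12.9% lower. Of 41 seed groups with at least 2 members tested, 4 had at least 2 members called, and in 2 of these, let-7 and miR-181, a member was called in each direction. In the other 2, miR-99a-5p with miR-100-5p and miR-674-5p with miR-3473d, both called members were higher. let-7 is the classic family of differentiated cells. let-7g-5p was at 38270 to 59600 CPM in CM and 31650 to 41930 CPM in Ctrl libraries (0.51 ± 0.14, edgeR adjusted p = 0.0176). let-7e-5p, which differs from it at 3 of 22 bases, was lower, at the levels given above, and the 7 other 5p members with the same seed were not called. miR-181, which acts in lymphocyte development, showed the same division between neighbours (mm9 chr8:86702615-86702867, minus strand). miR-181d-5p was at 432 to 1044 CPM in CM and 299 to 482 CPM in Ctrl libraries (0.96 ± 0.20, edgeR adjusted p = 0.00531), and miR-181c-5p was at 326 to 512 CPM and 365.2 to 803 CPM (-0.53 ± 0.18, edgeR adjusted p = 0.0406). Without mice 3336 and 3368 miR-181d-5p was 0.92 (adjusted p = 0.0154) and miR-181c-5p -0.37 (adjusted p = 0.166).

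In the miR-30 family 2 of 11 strands were higher and 3 lower, beside 14.6% higher and 12.9% lower over all tested. miR-30b-5p was at 1976 to 4319 CPM in CM and 3802 to 5942 CPM in Ctrl libraries (-0.83 ± 0.20, edgeR adjusted p = 0.0105), opposite to miR-30a-5p above, and miR-30d-5p, from the same cluster as miR-30b, had 0.04 ± 0.11 with 7714 to 9267 CPM in CM and 7626 to 8579 CPM in Ctrl libraries. miR-30c-1-3p and miR-30b-3p were also lower (-0.76 ± 0.22 and -0.51 ± 0.18, edgeR adjusted p = 0.0209 and 0.0442). miR-30b-5p stayed called without mice 3336 and 3368 (-0.67, edgeR adjusted p = 0.0328), and miR-30c-1-3p and miR-30b-3p did not (-0.47 and -0.27, adjusted p = 0.0551 and 0.163). miR-30a and miR-30e strands differ at 1 of 22 bases in each arm, so that their counts can be exchanged. In the miR-29 family, the minor strands miR-29a-5p and miR-29c-5p were lower (-1.07 ± 0.32 and -0.82 ± 0.25, edgeR adjusted p = 0.0233 and 0.0271), and the major strand miR-29a-3p was not called (0.27 ± 0.23). Neither minor strand was called without mice 3336 and 3368 (-0.75 and -0.66, edgeR adjusted p = 0.0771 and 0.0979), and miR-29a-3p was called higher (0.58, adjusted p = 0.0147).

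**Figure D4:**
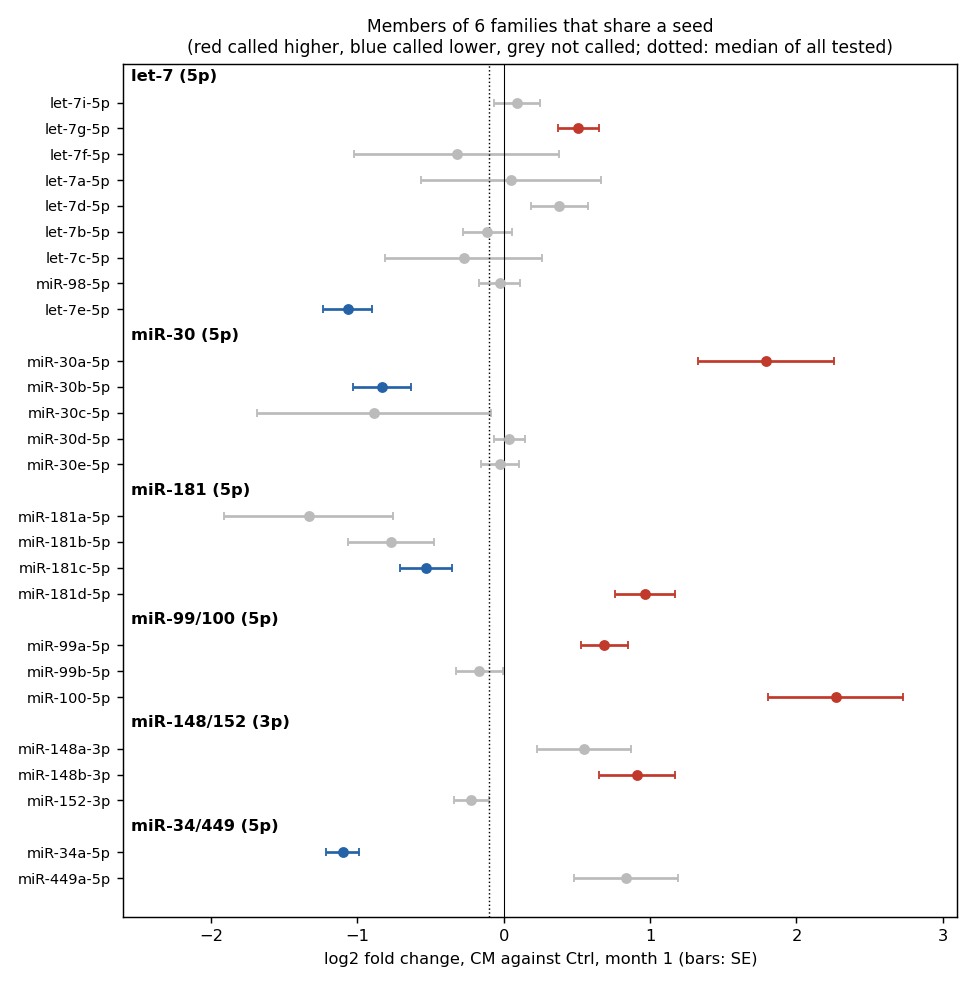
Log2 fold change at month 1 with its SE (horizontal axis) for the tested members of 6 families, red where called higher, blue where called lower and grey where not called, with the median of all tested miRNAs as a dotted line. let-7g-5p and let-7e-5p, miR-30a-5p and miR-30b-5p, and miR-181d-5p and miR-181c-5p lie on opposite sides of 0. The widest bars belong to let-7a-5p, let-7f-5p, miR-30c-5p and miR-181a-5p.

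When counts were summed by seed, 92 of 314 families were called (29.3%), 55 higher and 37 lower, and 80 of the 92 had a single member tested. With raw library sizes the split was 28 higher and 49 lower, and it was 42 and 39 with the scaling factors of the single miRNAs. The family sums were scaled apart from the single miRNAs, and their median log2 fold change was 0.07. Of the 10 called families with several members and the smallest p, the seed of miR-34a-5p and miR-449a-5p was lower (-0.70 ± 0.16, edgeR adjusted p = 0.00768), whereas its member miR-449a-5p alone had 0.84 ± 0.35 at 5.21 to 27.4 CPM in CM libraries. The miR-99/100 seed was higher (0.64 ± 0.16, adjusted p = 0.0109). So were the seeds of miR-674-5p with miR-3473d (1.12 ± 0.28) and of miR-148a/b-5p (0.77 ± 0.20). The seed shared by let-7a-1-3p, let-7b-3p, let-7f-1-3p and miR-98-3p was higher too (0.69 ± 0.21), with let-7a-1-3p alone called by itself. Higher as well were the seeds of miR-30a/e-3p (0.57 ± 0.18) and of miR-330-3p with miR-6240 (0.51 ± 0.16). The last one higher was that of miR-148a-3p with miR-148b-3p and miR-152-3p (0.83 ± 0.27). From miR-674-5p on, the edgeR adjusted p of these higher seeds was 0.0139 to 0.0314. The seeds of miR-500/501-3p (-0.55 ± 0.18) and of miR-326-3p with miR-330-5p (-0.41 ± 0.13) were lower (adjusted p = 0.0310 and 0.0318). The first 4 seeds named stayed called without mice 3336 and 3368 (edgeR adjusted p = 0.000502 to 0.0414) and the other 6 did not (0.0533 to 0.134). Adding the G number left 1 of these 10 called, the seed of miR-34a-5p (edgeR adjusted p = 0.0479).

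miRNAs with several genomic copies varied widely in the raw counts. Among miRNAs with a mean of 1000 CPM or more, the 12 with at least 2 RefSeq loci had a median SD of 1.66 in log2 CPM over the 7 Ctrl libraries, compared with 0.25 for the 55 with 1 locus. In the deposited CPM table, which holds other values for the same libraries, the medians were 0.26 and 0.27. miR-30c-5p, for example, ranged from 257 to 7515 CPM in Ctrl libraries by the raw counts. None of the 12 was called from the raw counts. From the reads recovered from the deposited CPM, miR-19b-3p (0.73, edgeR adjusted p = 0.0114) and miR-103-3p (0.71, adjusted p = 0.0323) were called higher, and miR-181a-5p went from -1.33 to -0.43 (adjusted p = 0.103 and 0.0625). In that fit 110 of the 130 miRNAs had the same call, and 9 were not tested.

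The 2 strands of a hairpin were compared within each library as the log2 ratio of 5p to 3p counts, which does not depend on scaling. The ratios were taken from the raw counts only and were not repeated with the recovered reads. Of the hairpins with both strands tested 32 had a ratio that differed between the arms (26.4%, 2-sided exact permutation test, BH-adjusted p under 0.05), 19 with relatively more 5p in CM mice and 13 with relatively more 3p. The median difference over all hairpins was 0.01. In 11 of the 32, neither strand was called on its own, and in 19 one strand was. In 2 hairpins the libraries of the arms did not overlap, which gives the smallest p possible with 7 against 7 (exact permutation p = 0.000583, BH-adjusted p = 0.0202). For miR-22 (mm9 chr11:75277218-75277312, plus strand, listed within Tlcd2, in an exon of at least 1 transcript) the ratio was -5.80 to -5.16 in CM and -6.47 to -5.95 in Ctrl libraries, a difference of 0.85. miR-22-5p rose (86.7 to 182 CPM against 59.7 to 104.8 CPM, log2 fold change 0.80 ± 0.20, edgeR adjusted p = 0.0123) and the major strand miR-22-3p was at 3875 to 7442 CPM against 4196 to 6461 CPM. For miR-467e the ratio was 6.51 to 7.84 in CM and 5.61 to 6.38 in Ctrl libraries, with a lower 3p strand as given above.

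miR-340, from an intron of Rnf130 (mm9 chr11:49883204-49883301, plus strand), was the one hairpin whose strands were called in opposite directions. miR-340-5p was at 1436 to 4132 CPM in CM and 4064 to 7059 CPM in Ctrl libraries (-0.89 ± 0.22, edgeR adjusted p = 0.0105), and miR-340-3p was at 80.9 to 289 CPM and 53.7 to 187 CPM (0.96 ± 0.33, adjusted p = 0.0452). miR-340-3p had 1.07 without mice 3336 and 3368 and was not called (edgeR adjusted p = 0.0684). The log2 ratio fell by 1.93 (exact permutation p = 0.00175, BH-adjusted p = 0.0202). For miR-31 the ratio was higher by 2.34 (exact permutation p = 0.00233, BH-adjusted p = 0.0202), since miR-31-3p was at 0.82 to 5.41 CPM in CM and 1.72 to 4.82 CPM in Ctrl libraries (log2 fold change -0.11). For miR-29a (-1.34), miR-151 (0.58), miR-140 (-0.48), miR-6516 (0.92), miR-532 (0.65) and miR-345 (-0.63) the exact permutation p was 0.00117 to 0.00175, with a BH-adjusted p of 0.0202. The strand miR-140-3p had a log2 fold change of 0.34 from the raw counts and 0.04 from the recovered reads. Without mice 3336 and 3368, 17 ratios were called, 13 of them among the 32. All 32 kept their sign, in libraries by which they had been chosen. Of the 10 named here, miR-345 was not called then (-0.61, BH-adjusted p = 0.0509, exact permutation test). In G 5 alone, with 2 CM and 3 Ctrl libraries, all 32 had the same sign as over all libraries, of which these are a part, and so did 88.4% of all hairpins compared.

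**Figure D5:**
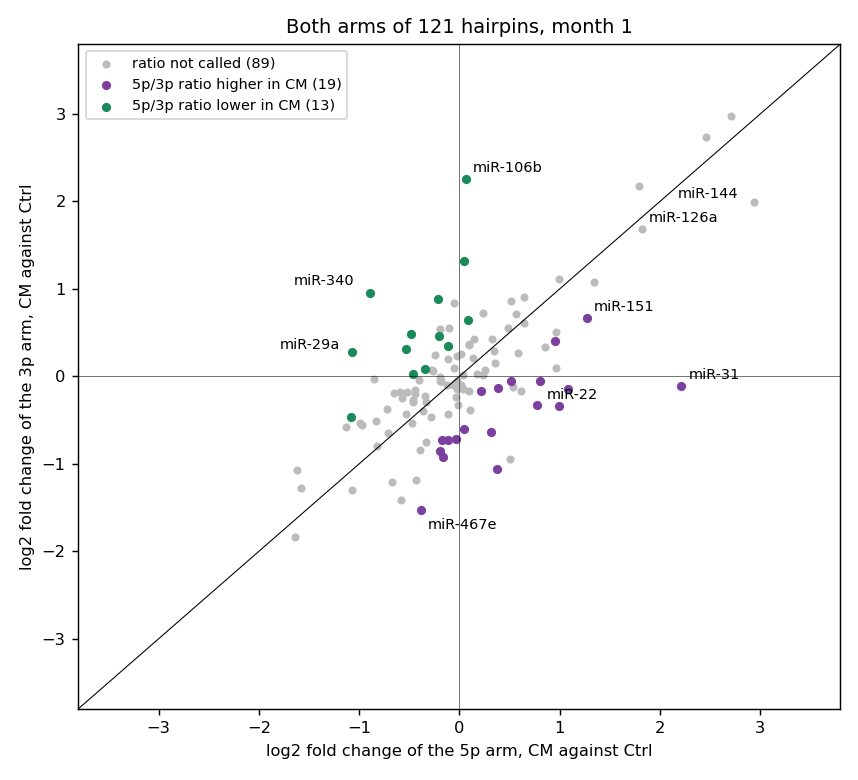
Log2 fold change of the 3p strand (vertical axis) against that of the 5p strand (horizontal axis) for each hairpin with both strands tested at month 1, with the 19 hairpins whose 5p/3p ratio was higher in CM mice in purple, the 13 with a lower ratio in green and the others in grey. miR-31 and miR-22 lie to the right of the line of equal change, miR-106b far above it and miR-340 in the upper left, whereas both strands of miR-126a and of miR-144 changed in the same direction.

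Before induction few differences were called. At month 0, 1 of 478 miRNAs was called (0.209%), miR-466n-3p, which is named because it was the only one, and 62 had an unadjusted p under 0.05 (edgeR). DESeq2 called 4. The change from month 0 to month 1 differed between the arms for 44 of 520 miRNAs (8.46%), 31 with a larger rise and 13 with a smaller one in CM mice, by the interaction of arm and month in edgeR. Both months share no library, but the comparison at month 1 and this change share the libraries of month 1. Of the 130 miRNAs called at month 1, 38 were also called for the change, and 19 with mouse as a replicate block. At month 0 the log2 fold changes were 0.49 for miR-31-5p, -0.44 for miR-34a-5p, -0.24 for miR-139-5p and -0.08 for let-7e-5p. Some miRNAs that were higher in CM mice at month 1 had a lower mean in CM mice at month 0, by -0.71 for miR-126a-3p, -1.19 for miR-144-5p, -1.23 for miR-486a-3p and -1.35 for miR-486b-3p (edgeR adjusted p = 0.434, 0.461, 0.426 and 0.405). For these the change is larger than the difference at month 1. With mouse as a block, the difference in change had an edgeR adjusted p of 0.0168 for miR-31-5p, 0.0410 for miR-139-5p, 0.0896 for let-7e-5p and 0.150 for miR-34a-5p (0.0490 without the block). It was 0.0227 for miR-126a-3p, 0.146 for miR-144-5p and 0.0712 for both miR-486a-3p and miR-486b-3p.

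Markers of other cells were measured beside these results. The mature lymphocyte list (miR-150 and miR-342 strands) had 0 of 4 members called and a median of -0.38, with a sum of 17320 to 60800 CPM in CM and 34680 to 70570 CPM in Ctrl libraries. The myeloid list (miR-223 strands) had 0 of 2, with 4058 to 11100 CPM and 5006 to 27280 CPM, and the pan-hematopoietic list (miR-142a strands) 0 of 2. From the recovered reads miR-142a-3p was called lower (-0.71, edgeR adjusted p = 0.0295, against -0.72 and 0.0556 from the raw counts). Of the liver list 0 of 3 and of the vessel wall list 0 of 2 were called, beside 27.5% over all tested. Without mice 3336 and 3368, 1 member of each was called lower (list medians -0.93 and -1.08). The epithelial list had 1 of 6 called, and 2 higher without these mice (list median 0.61). The 1 called with all libraries was miR-205-5p, at 54.05 to 652 CPM in CM and 19.7 to 102.2 CPM in Ctrl libraries (1.84 ± 0.54, edgeR adjusted p = 0.0224). miR-205-5p was highest in CM mouse 3357. The part of any of these cells in the differences above was not tested. Of the imprinted Dlk1-Dio3 cluster no miRNA passed the filter, and 38 listed ones were at 0 in every library.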

How the data were processed

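Small RNA was sequenced from PBMC. Per the labels and methods, the authors removed adapters with cutadapt, aligned with Bowtie and counted mature miRNAs. The methods name mm9, the submitters' processing notes GRCm38, and positions here are from GENCODE vM1 (mm9). The deposited raw counts of 1863 miRNAs were used as counts. The deposited CPM, a signal the authors scaled by TMM (trimmed mean of M-values) in edgeR, list 1895 miRNAs and other values for the same libraries. Whole reads were recovered from it (100% of values whole within 0.1 reads) and tested as an alternative. Columns of the validation cohort were not used.

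Counts were tested with edgeR 4.0.16 in R 4.3.3 (TMM, filterByExpr, quasi-likelihood F test, BH-adjusted p under 0.05). Levels are TMM-scaled CPM, and fold changes are log2, CM against Ctrl. Month 0 and the interaction were fitted likewise, and for seed families counts were summed over bases 2 to 8 (RefSeq). Strand ratios were log2 with 0.5 counts added. limma 3.58.1 and DESeq2 1.42.0 served alternatives. Scripts were tested on simulated data. Totals of 3304813 to 6334849 counts per library set the precision, which is lowest for rare miRNAs. Leaving out CM mice 3336 and 3368 or Ctrl mice 3342 and 3346, differences within a G number, the recovered reads and the scaling of families by single miRNAs were alternatives chosen after seeing the data.

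Named miRNAs were miR-126a, the 12 called miRNAs per direction that changed most (mean level from 10 CPM), the 6 most abundant called, called members of lists with at least 2, the marker lists and the 10 leading seed families and strand ratios. Others were chosen after their values were seen. Members and lists were chosen with earlier results of these data known. Each library is a separate mouse. For the change from month 0, the mouse number in the labels pairs the libraries of both months, so mouse was used as a block in an alternative.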

Additional observations from a re-analysis of the deposited data

Results flagged for a closer look

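For 59 named miRNAs the 7 libraries of each arm were examined for a library far from the others, which chance gives in about 1 of 20 such groups. It was found in 2 groups. miR-709 was at 2.74 CPM in CM mouse 3336, and miR-29c-5p at 32.95 CPM in Ctrl mouse 3342.

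For 25 of the 59 miRNAs that the rule names the difference between the arms changed from month 0 to month 1 (interaction in edgeR, BH-adjusted p under 0.05). Over all tested it was 44 of 520 (8.46%). The rule names miRNAs by their month 1 results, and the same libraries of month 1 enter the interaction. A higher share among the named miRNAs was therefore built in. The change of the difference, in log2 units, was 2.50 for miR-126a-3p, 1.87 for miR-126a-5p, 1.85 for miR-31-5p, 4.66 for miR-133a-3p, 2.22 for miR-499-5p, 2.86 for miR-100-5p, 1.97 for miR-215-5p and 0.79 for let-7g-5p. Among red cell miRNAs it was 4.35 for miR-486a-3p, 4.28 for miR-144-5p, 4.21 for miR-486b-3p, 3.64 for miR-486a-5p and 2.84 for miR-486b-5p. It was 2.21 for miR-106b-3p, 1.93 for miR-25-5p, 2.95 for miR-6538, 2.11 for miR-30a-3p and 1.76 for miR-30a-5p. Negative changes were -1.22 for miR-139-5p, -0.88 for let-7e-5p, -1.05 for miR-99b-3p, -1.81 for miR-467e-3p, -2.39 for miR-669a-3-3p, -0.76 for miR-669f-5p and -1.29 for miR-297b-3p. With mouse as a replicate block, 21 of 520 miRNAs were called.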

How the results depend on the processing

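No paired analysis was possible within month 1 because the arms hold different mice. For the change from month 0, where pairs come from the same mouse, the replicate block gave 21 calls in place of 44, raw library sizes 27 and the omission of CM mice 3336 and 3368 19. At month 1 the calls, 130 in all, were 10 with the G number, 86 without CM mice 3336 and 3368, 95 to 145 when 1 mouse was left out and 94 to 156 under the other settings. RLE scaling moved the median log2 fold change of all tested by 0.10 and scaling without the erythroid list by 0.11. At month 0, 1 call became 0 without mice 3334 and 3335 (66 at an unadjusted p under 0.05) and 4 with DESeq2. The 92 seed families became 59 with sex, 5 with the G number, 50 without CM mice 3336 and 3368 and 52 to 100 when 1 mouse was left out, with 60 without CM mouse 3368 and 52 without Ctrl mouse 3339. The 32 strand ratios became 17 without CM mice 3336 and 3368 and 18 to 36 when 1 mouse was left out, with 20 without CM mouse 3338, 18 without Ctrl mouse 3339 or 3349 and 19 without 3350. Over 2044 values of named results under alternatives, 1685 kept their call, 358 fell below the threshold and 1 turned, that of miR-466p-5p (0.09 from the deposited CPM with limma and 1 CPM added). The cause of these shifts was not tested.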

Other observations

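Other lists had few calls. Those named here were chosen after their values were seen, unless they belong to a list with at least 2 called members. In the X-linked cluster of miR-322, miR-351, miR-503 and miR-542, 2 of 13 strands were higher and 1 lower (median -0.19), which makes 3 of 13 called beside 27.5% over all tested. miR-351-5p was at 191.8 to 496.6 CPM in CM and 150.2 to 255.3 CPM in Ctrl libraries (0.78 ± 0.21, edgeR adjusted p = 0.0164), miR-322-3p had 0.64 ± 0.22 and miR-542-3p -0.60 ± 0.18 (adjusted p = 0.0465 and 0.0233). Without CM mice 3336 and 3368 miR-351-5p stayed called (0.85, edgeR adjusted p = 0.0283), and miR-322-3p and miR-542-3p did not (0.75 and -0.44, adjusted p = 0.0548 and 0.0921). In the miR-148 family both miR-148b strands were higher. miR-148b-5p did not overlap between the arms (58.5 to 116.6 CPM in CM and 40.2 to 56.0 CPM in Ctrl libraries, 0.64 ± 0.18, edgeR adjusted p = 0.0177), and miR-148b-3p was at 3385 to 9440 and 2045 to 4837 CPM (0.91 ± 0.26, adjusted p = 0.0209). Without CM mice 3336 and 3368 miR-148b-3p was no longer called (0.65, edgeR adjusted p = 0.0679).

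Among immune miRNAs, miR-146b-5p was lower (982 to 2215 CPM in CM and 1714 to 5028 CPM in Ctrl libraries, -0.98 ± 0.27, edgeR adjusted p = 0.0164) and was highest in Ctrl mice 3342 and 3346, without which it had -0.56 (adjusted p = 0.0738). Without CM mice 3336 and 3368 it had -0.78 (edgeR adjusted p = 0.0737). miR-146a-5p (-0.26 ± 0.30) and miR-155-5p were not called. None of the 10 strands of the miR-23, miR-24 and miR-27 clusters, of the 4 strands of miR-221 and miR-222, of the 4 strands of miR-191 and miR-425, of the 3 miR-10 strands, of the 4 miR-26 strands, of the 4 miR-101 strands or of the 6 miR-200 and miR-141 strands was called. Over all tested 27.5% were called. Among these strands miR-24-3p and miR-26a-5p varied widely in the raw counts (SD 1.42 and 1.73 in log2 CPM over Ctrl libraries), which limits what could be called. From the recovered reads miR-222-3p was called higher (1.17, edgeR adjusted p = 0.0246, against 0.54 and 0.189 from the raw counts). Of the miR-15 and miR-16 strands 1 of 7 was higher, near the 14.6% called higher over all tested. It was miR-15b-5p (1803 to 4639 CPM in CM and 1504 to 2126 CPM in Ctrl libraries, 0.65 ± 0.22, edgeR adjusted p = 0.0408), with its 2 highest values in mice 3336 and 3368. Without them it was not called (0.33, edgeR adjusted p = 0.0998). miR-16-5p also varied widely in the raw counts (SD 1.82 in log2 CPM over Ctrl libraries).

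Of the 23 miRNAs whose arms did not overlap, 1 was not called, miR-361-5p (1919 to 3111 CPM in CM and 3120 to 4217 CPM in Ctrl libraries, -0.34 ± 0.14, edgeR adjusted p = 0.0829). miR-652-3p was lower without overlap by a small step (1561 to 2388 and 2433 to 3461 CPM, -0.53 ± 0.14, edgeR adjusted p = 0.0128), and miR-700-3p was higher (91.3 to 130.6 and 71.2 to 90.9 CPM, 0.48 ± 0.12, edgeR adjusted p = 0.0109). miR-135a-1-3p had the most negative log2 fold change of the called miRNAs (-2.71 ± 0.53, edgeR adjusted p = 0.00523), at levels of 2.00 CPM or less in CM and 2.88 to 9.79 CPM in Ctrl libraries.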
